A study of Mus musculus with 144 samples.

Results

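The Bcl2 family holds the proteins that decide whether the outer membrane of a mitochondrion stays closed or is opened, the step that commits a cell to apoptosis. Guardians such as Bcl2, Bcl2l1 (Bcl-xL), Mcl1 and the Bcl2a1 proteins keep the effectors Bax and Bak1 in check, and BH3-only proteins such as Bbc3 (Puma) and Bcl2l11 (Bim) bind the guardians and release the effectors. Bcl2a1 genes are known targets of NF-kB in myeloid cells, Mcl1 is a short-lived protein on which neutrophils depend, and Bbc3 is a known target of p53. The genes examined here were 10 of the 55364 in the deposited table, chosen by name: 6 guardians (Bcl2a1a, Bcl2a1b, Bcl2a1d, Mcl1, Bcl2l1 and Bcl2), the 2 effectors Bax and Bak1, and the 2 BH3-only genes Bbc3 and Bcl2l11. Each was matched by its symbol, and all 10 were found.

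The cells were sorted one to a well from retinas of Iba1-EGFP mice on a C57BL/6 background, aged 20 to 22 months. Iba1-EGFP is a transgene that makes microglia and other Iba1-expressing myeloid cells fluoresce green, and all groups carry it. By title, 54 wells came from retinas without optic nerve crush, 36 from day 2 after crush and 54 from day 4, on 3 plates of 48 wells. The nerve crush injures the axons of retinal ganglion cells. For the 18 day 4 wells of plate 1 the treatment tag says day 2, and the title was followed. The labels give no animals, which makes every group a single sample without a replicate, and no difference has a test. Intervals are exact Clopper-Pearson 95% intervals for counting error alone. On every plate the groups sat in separate rows, so group and row cannot be told apart.

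Levels are in reads per 1000000 (RPM), the deposited FPKM multiplied by gene length in kilobases, which sums to 1000000 in each well. In 88 wells the values correspond to 60079 to 8065036 reads, called deep wells here, and in the other 56 to 643 to 14205 reads. Of the deep wells 39 were uncrushed, 25 were from day 2 and 24 from day 4, and a gene was counted as present in a deep well at 50 RPM or more. In the shallow wells 1 read is worth at least 70.4 RPM, so they are given apart. Genes with any read numbered 3161 in the median uncrushed deep well, against 3777 for day 2 and 4992 for day 4, and these numbers stand beside every comparison below. At least 3 of 11 microglia markers were present in 37 uncrushed, 21 day 2 and 22 day 4 deep wells. At least 3 of 11 neutrophil markers were present in 1, 7 and 2 of them, and at least 3 of 13 rod markers in 3, 1 and 1. No marker of T cells or endothelium reached 50 RPM in any deep well.

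The copies of Bcl2a1 were the members found most often, and their sequences limit what can be said of each. Bcl2a1a (ENSMUSG00000102037, GRCm38 chr9:88956900-88962419, plus strand), Bcl2a1b (ENSMUSG00000089929, chr9:89199209-89207827, plus strand) and Bcl2a1d (ENSMUSG00000099974, chr9:88723285-88731914, minus strand) are mouse duplicates of a single ancestral gene. Their coding sequences are 516 bases each, from GENCODE transcripts, and differ at 12 positions in all. Copies a and b were 97.9% identical, a and d 98.6%, and b and d 98.8%. The first 90 coding bases hold 6 of the 12 positions and are shown because a read over them can tell copies apart. Bases that differ between the copies are in capitals, read on the strand of the gene, at chr9:88957051-88957140 for a, chr9:89199360-89199449 for b and chr9:88731630-88731719 for d:
Bcl2a1a: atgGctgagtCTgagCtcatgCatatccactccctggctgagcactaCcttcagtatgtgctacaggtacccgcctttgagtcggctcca
Bcl2a1b: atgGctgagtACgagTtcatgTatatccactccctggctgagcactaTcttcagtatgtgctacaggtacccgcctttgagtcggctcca
Bcl2a1d: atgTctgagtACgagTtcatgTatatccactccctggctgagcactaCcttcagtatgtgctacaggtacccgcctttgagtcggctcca
Copies a and d share a coding stretch of 314 bases without a difference, and the other pairs share 217. A read that falls within such a stretch fits both copies.

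The bases just before the 3 genes are also nearly the same, and are shown for comparison. Any part of them in the levels of the copies was not tested. The 150 bases before each gene start, from RefSeq promoters on GRCm38.p6, lie at chr9:88956750-88956899 (plus strand), chr9:89199059-89199208 (plus strand) and chr9:88731915-88732064 (minus strand). The capitals mark TGAATCA, which matches the AP-1 letters TGANTCA, and after it GAGGAAGT, letters known to be bound by PU.1, a factor of the myeloid lineage:
Bcl2a1a: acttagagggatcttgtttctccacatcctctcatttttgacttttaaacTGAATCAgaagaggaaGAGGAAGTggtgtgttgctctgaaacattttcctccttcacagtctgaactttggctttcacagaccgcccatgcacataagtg
Bcl2a1b: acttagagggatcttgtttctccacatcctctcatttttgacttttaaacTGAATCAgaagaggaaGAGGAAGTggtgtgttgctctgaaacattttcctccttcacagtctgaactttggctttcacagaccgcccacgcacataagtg
Bcl2a1d: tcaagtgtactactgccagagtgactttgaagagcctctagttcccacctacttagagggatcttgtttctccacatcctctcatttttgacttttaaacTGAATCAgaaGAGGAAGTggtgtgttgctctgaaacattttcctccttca
The motifs stand 9 bases apart in copies a and b and 3 apart in d. All 10 members had promoters in the RefSeq table, 15 in all, of 300 bases each (250 before the start and 50 after it). Searched on both strands of these, GAGGAAGT was present for the 3 copies and for Bak1, and in 3.20% of all 32851 promoters. TGANTCA was present for the 3 copies and no other member, and in 7.81% of all promoters. The NF-kB letters, GGG and CC with any 5 bases between them, were present for 8 of 10 members and 50.8% of all promoters. The members without them were Bcl2a1a and Bcl2a1d, so of the 3 copies only the window of Bcl2a1b held them. The windows of the copies do not cover the same bases. Copies a and b align over 256 of 300 bases there, and a and d over 294. The NF-kB count alone therefore does not show that the copies differ in sequence. All these motifs are matches of letters, not measured binding.

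The deposited values of the copies were mostly fractions of reads. Of values under 100 reads, 14.7% were whole numbers within 0.01 for Bcl2a1a, 8.11% for Bcl2a1b and 16.7% for Bcl2a1d. Over all genes 40.9% were whole, and for Mcl1 and Bcl2l1 100%. How reads that fit several genes were assigned is not given in the sources used here. Of the length of Bcl2a1b, 401 bases or 49.1% also overlap exons of Gm29094 on the same strand. In the 47 deep wells with a sum of 50 RPM or more, the median share of the sum within a well was 20.0% for copy a, 50.9% for b and 27.7% for d. The median of b was 60.1% in uncrushed, 36.4% in day 2 and 41.3% in day 4 wells, and that of a 12.6%, 27.8% and 29.8%. Within single wells copy a took 7.94% to 67.3%, b 4.39% to 73.0% and d 17.3% to 60.3%. All 3 copies reached 50 RPM in 33 of the 47, and in none did 1 copy take 90% or more. The levels of each copy are therefore uncertain, and their sum is used below. Bcl2a1c, a further copy outside the members, reached 50 RPM in 1 deep well.

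Bcl2a1, a guardian of hematopoietic cells, was present at 50 RPM in a minority of uncrushed wells and in most day 4 wells. The sum of the 3 copies was present in 16 of 39 uncrushed wells (interval 25.6% to 57.9%), in 14 of 25 day 2 wells (56%, 34.9 to 75.6) and in 17 of 24 day 4 wells (70.8%, 48.9 to 87.4). The lowest, median and highest well were 0, 7.07 and 1606 RPM for the uncrushed group. They were 0, 146 and 3844 RPM for day 2, and 0, 818 and 3917 RPM for day 4. The groups overlapped over their whole lower range, and the intervals of the shares overlap as well. The wells fell into high and low levels more than into a continuous range: 33 of 88 lay under 5 RPM, 8 between 5 and 50, 3 between 50 and 200 and 44 at 200 or more. Among wells that held it the median was 458 RPM for uncrushed, 533 for day 2 and 901 for day 4.

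**Figure D1:**
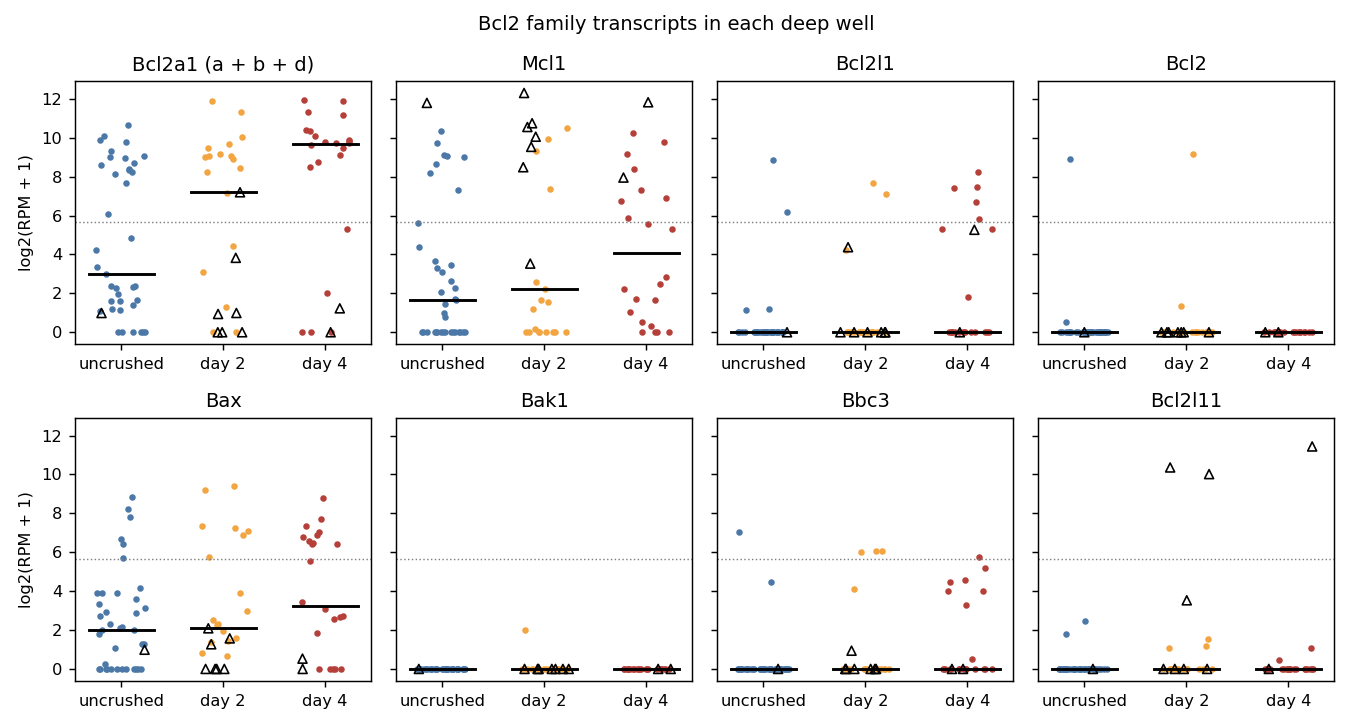
Level of each gene in every deep well as log2(RPM + 1), for 39 uncrushed, 25 day 2 and 24 day 4 wells, with Bcl2a1 as the sum of its 3 copies. Points are wells, bars are medians, open triangles are the 10 wells with 3 or more neutrophil markers and the dotted line is 50 RPM. Bcl2a1 wells lie in a high and a low band, and Bcl2l11 passes the line in 3 triangle wells only.

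Bcl2a1 at day 4 differed among the plates. It was present in 7 of the 12 day 4 deep wells on plate 1, all 10 on plate 2 and neither of the 2 on plate 3, where 0 of 2 allows up to 84.2%. Among uncrushed wells the plates gave 5 of 11, 5 of 15 and 6 of 13. Day 2 wells gave 8 of 11, 2 of 6 and 4 of 8. The difference in mean log2(RPM + 1) between day 4 and uncrushed wells was 2.93 (7.51 ± 4.32 SD over wells against 4.57 ± 3.79), with 1.52, 6.08 and -3.95 within the plates. Day 2 differed from uncrushed by 1.16 (2.08, 0.26 and 0.13 within the plates), and by 2.50 once the 7 day 2 and 4 uncrushed wells marked as neutrophil or rod were left out. Day 4 differed from day 2 by 1.77, with -0.56, 5.82 and -4.08 within the plates. The plates thus gave both signs. Without plate 2, day 4 minus day 2 was -0.21 for Bcl2a1a, -0.18 for Bcl2a1b and -0.25 for Bcl2a1d. The 12 day 4 deep wells of plate 1 are those whose treatment tag says day 2. Plate and tag therefore cannot be told apart in these values.

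Most genes were higher in the day 4 wells, and the members have to be read against that. Differences are counted where a gene reached 50 RPM in at least 10% of the deep wells of both groups together, and a gene is called at a 2-fold difference (1 on the log2 scale). Of 10 members 6 passed the filter for day 4 against uncrushed, Bcl2a1a, b and d, Mcl1, Bcl2l1 and Bax, and all 6 were higher by 2-fold or more and 0 lower. Bcl2l1 passed only through the day 4 wells (5 of 24, against 2 of 39), so its direction was fixed by the filter. Of all 3773 genes that passed, 62.1% were higher and 1.48% lower, and their median was 1.37. Bcl2a1a differed by 2.86, Bcl2a1b by 2.70 and Bcl2a1d by 2.90. The difference of their sum, 2.93, exceeded that of 91.1% of genes, and the copies taken singly exceeded 87.6% to 90.7%. Mcl1 at 1.41 and Bax at 1.42 lay near the middle, at 51.1% and 51.3%. Bcl2l1 differed by 1.78. With a pseudocount of 10 the count was 3 in place of 6, beside 34.5% of all genes, and without plate 2 it was 3 beside 45.3%. The other 4 members did not pass: Bbc3 differed by 1.03, Bcl2l11 by 0.43, Bak1 by 0 and Bcl2 by -0.24.

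For day 2 against uncrushed 5 members passed the filter, and 4 were higher by 2-fold or more and 0 lower. Of the 3083 genes that passed, 37.2% were higher and 3.31% lower. The 4 were Bcl2a1a at 1.22, Bcl2a1b at 1.01, Bcl2a1d at 1.14 and Mcl1 at 1.39, and Bax was at 0.74. The count was 1 with a pseudocount of 10, beside 16.1% of all genes, and 1 without plate 1, beside 29.6%. For day 4 against day 2 there were 6 that passed, with 4 higher and 0 lower, beside 34.5% higher and 3.7% lower of 5299 genes. These were the 3 copies of Bcl2a1 at 1.64 to 1.76 and Bcl2l1 at 1.29, which again passed only through day 4. Without wells marked as neutrophil or rod, Bcl2a1a was at 0.81 and Bcl2a1d at 0.97, under 2-fold, Bcl2a1b at 1.11 and the sum at 0.89. Mcl1 was at 0.02 and Bax at 0.67. Without plate 2 the count was 1, beside 19.8% of all genes. Without the 18 wells of conflicting tags, 12 of them deep, Bcl2a1a was at 3.94 for day 4 minus uncrushed and 2.72 for day 4 minus day 2. Bax was then at 2.35 and 1.61, past 2-fold in both, and Bcl2l1 passed the filter in neither. These comparisons share wells, so they are not separate evidence of one another.

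**Figure D2:**
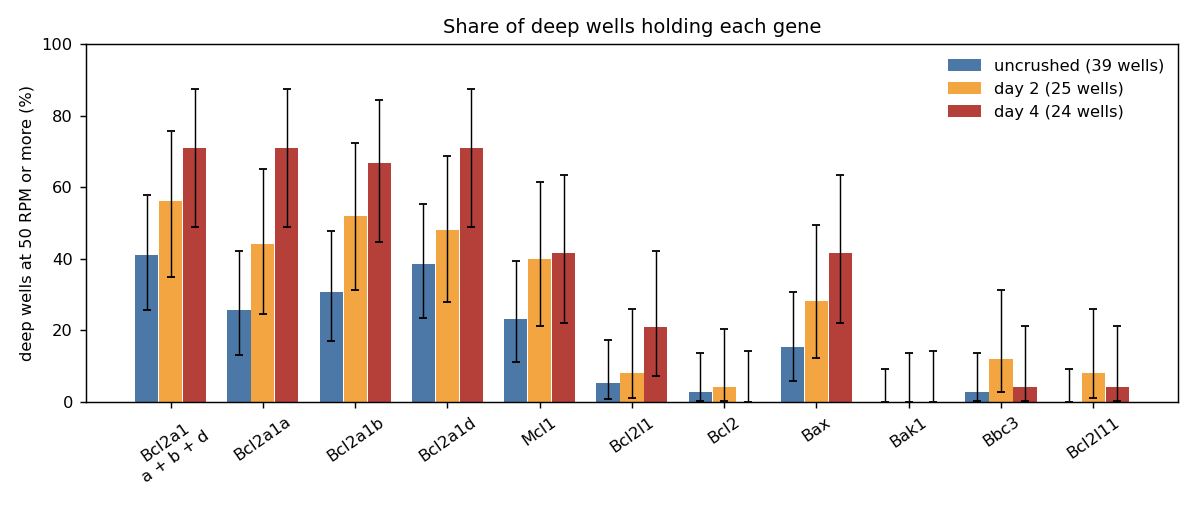
Share of deep wells at 50 RPM or more for each member and for the sum of the Bcl2a1 copies, in percent, with exact 95% Clopper-Pearson intervals that cover counting error only. Bars are uncrushed (39 wells), day 2 (25) and day 4 (24). The day 4 bar of the Bcl2a1 sum stands at 70.8%, and its interval overlaps those of the other groups.

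Mcl1 (ENSMUSG00000038612, chr3:95658788-95663176, plus strand) is a guardian whose messenger RNA and protein turn over quickly. It was present in 9 of 39 uncrushed wells (23.1%, 11.1 to 39.3), in 10 of 25 day 2 wells (40%, 21.1 to 61.3) and in 10 of 24 day 4 wells (41.7%, 22.1 to 63.4). Its median was 2.19, 3.74 and 22.1 RPM, and its highest well 3551, 5054 and 3631 RPM. It reached 5 RPM in 16 uncrushed, 12 day 2 and 13 day 4 wells, and 200 RPM in 8, 9 and 6.

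Wells with neutrophil markers held much of the Mcl1 at day 2. Over all groups, Mcl1 was present in 9 of the 10 deep wells with 3 or more neutrophil markers (90%, 55.5 to 99.7), which ran from 10.5 to 5054 RPM with a median of 1283. It was present in 20 of the other 78 (25.6%, 16.4 to 36.8), with a median of 2.20 RPM and a highest of 1445. At day 2 the counts were 6 of 7 against 4 of 18. Without wells that held neutrophil or rod markers the day 2 difference from uncrushed turned from 1.39 to -0.30, and that of day 4 from day 2 went from 0.02 to 1.42. The day 4 difference from uncrushed was 1.12 without them.

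Bcl2a1 and Bax did not follow Mcl1 in those wells. The Bcl2a1 sum was present in 1 of the 10 neutrophil-marked wells, at 146 RPM, and in 46 of the other 78 (59.0%, 47.2 to 70.0). Bax was present in 0 of the 10, where its highest value was 3.26 RPM, and in 23 of the other 78. Of the 18 day 2 wells with fewer than 3 neutrophil markers, 13 held Bcl2a1 (72.2%, 46.5 to 90.3). The 10 wells come from all 3 groups, 7 of them from day 2, and the groups of wells were set by markers, not by a label.

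**Figure D3:**
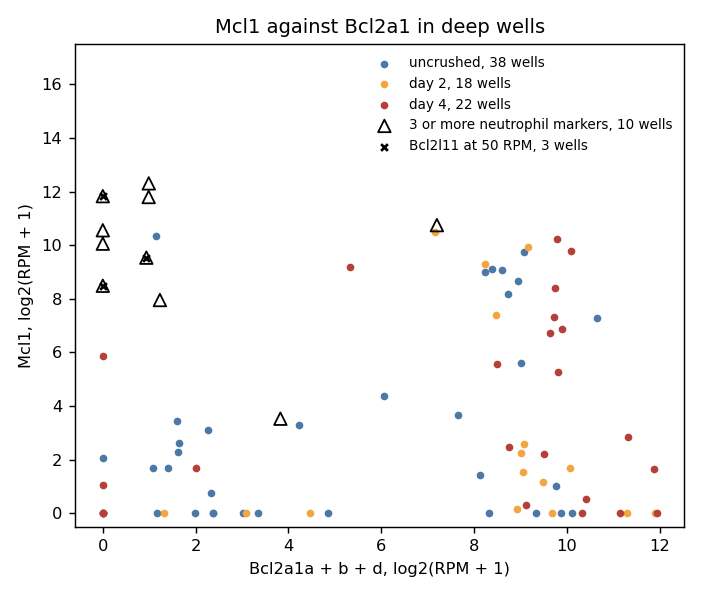
Mcl1 against the sum of the Bcl2a1 copies in the 88 deep wells, both as log2(RPM + 1). Colours are the groups, open triangles the 10 wells with 3 or more neutrophil markers, and crosses the 3 wells with Bcl2l11 at 50 RPM or more. Of the triangles 9 are high in Mcl1 and 1 passes 50 RPM of Bcl2a1.

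Bcl2l1 (ENSMUSG00000007659, chr2:152780668-152831728, minus strand), which encodes Bcl-xL, was less frequent. It was present in 2 of 39 uncrushed wells (5.13%, 0.627 to 17.3), in 2 of 25 day 2 wells (8%, 0.984 to 26.03) and in 5 of 24 day 4 wells (20.8%, 7.13 to 42.2). The 2 uncrushed wells lay at 70.6 and 466 RPM, the 2 day 2 wells at 137 and 202, and the 5 day 4 wells at 56.5, 101, 168, 175 and 301. The median was 0 RPM in all 3 groups. All 9 of these wells also held Bcl2a1.

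Bcl2 itself (ENSMUSG00000057329, chr1:106538178-106714274, minus strand), the founding guardian, was nearly missing from these wells. It reached 50 RPM in 1 uncrushed well, at 487 RPM, and in 1 day 2 well, at 565 RPM, both on plate 3 and both with all 11 microglia markers. No day 4 deep well had a read of it, which allows a share of up to 14.2%. An antisense gene, D630008O14Rik, overlaps 558 of its exon bases, and whether strand was used in counting is not given in the sources used here.

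Bax and Bak1, the effectors that form the pore, differed widely in level. Bax (ENSMUSG00000003873, chr7:45461697-45466898, minus strand) was present in 6 of 39 uncrushed wells (15.4%, 5.86 to 30.5), in 7 of 25 day 2 wells (28%, 12.1 to 49.4) and in 10 of 24 day 4 wells (41.7%, 22.1 to 63.4). Its lowest, median and highest were 0, 3.00 and 461 RPM, then 0, 3.26 and 671, and then 0, 8.61 and 437. The shares run upward while the highest wells do not. Day 4 minus uncrushed was 0.20, 3.80 and -2.78 within the plates, and -0.24 without plate 2. Bax shares 192 exon bases with Gm45808 on the same strand, and 13.5% of its values under 100 reads were whole, and the way such reads were assigned is not known here.

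Bak1 (ENSMUSG00000057789, chr17:27019810-27029009, minus strand) had reads in 1 of 88 deep wells, a day 2 well of plate 1 with 8 reads or 3.07 RPM. It reached 50 RPM in 0 of 88, which allows a share of up to 4.11%. At this depth Bax was the effector detected.

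The BH3-only genes were scarce. Bbc3 (ENSMUSG00000002083, chr7:16308393-16318205, plus strand), which encodes Puma, had any read in 2 of 39 uncrushed wells, 5 of 25 at day 2 and 8 of 24 at day 4, and reached 50 RPM in 1, 3 and 1. The 2 uncrushed wells lay at 21.5 and 131 RPM. The day 2 wells lay at 0.916, 16.5, 62.8, 66.0 and 66.1 RPM and those of day 4 between 0.410 and 53.9. Every level was low, and day 4 had more wells with a read but not higher values. Bbc3 wells were rich in genes: 14 of the 15 held all 11 microglia markers and Bcl2a1 at 142 RPM or more. The exception, a day 2 well with 1 read of Bbc3, held 6 neutrophil markers and 1 microglia marker, and it is one of the wells with Bcl2l11 described next.

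Bcl2l11 (ENSMUSG00000027381, chr2:128126038-128162547, plus strand), which encodes Bim, was present in 0 of 39 uncrushed wells, 2 of 25 at day 2 and 1 of 24 at day 4. The 3 wells lay at 1036, 1315 and 2779 RPM, on 1131, 625 and 2368 reads. Each held 5 or 6 neutrophil markers and 1 of 11 microglia markers, with Bcl2a1 at 0.916, 0 and 0 RPM. In the 78 deep wells with fewer than 3 neutrophil markers the highest Bcl2l11 value was 4.52 RPM, which is 2 reads, and 0 of 78 reached 50 RPM, which allows a share of up to 4.62%. Without wells of neutrophil or rod markers its day 2 difference from uncrushed was 0.09.

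The 6 guardian genes together exceeded the 2 effectors in most wells, and Bak1 was nearly undetected. Per gene length, the FPKM of Bcl2a1, Mcl1, Bcl2l1 and Bcl2 together exceeded that of Bax and Bak1 in 29 of 39 uncrushed wells, 22 of 25 at day 2 and 22 of 24 at day 4, and was lower in 9, 3 and 1. Many of these orders rest on values near 0. Where at least 1 of these genes reached 50 RPM, the guardians were higher in 18 of 20, 19 of 20 and 21 of 21 wells. Bcl2a1 or Mcl1 itself reached 50 RPM in 18, 19 and 21 of these wells. The choice of wells thus nearly fixed this order, and it adds no support. The median guardian FPKM was 23.5, 579 and 1068 and the median effector FPKM 1.90, 2.07 and 5.46. Wells with Bax also held Bcl2a1 in 4 of 6, 6 of 7 and 10 of 10 cases. At day 4 the 10 wells with Bax had a median of 8502 genes against 3492.5 in the 14 without. Levels of messenger RNA say nothing of the proteins or of their binding.

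The deep wells were next split by Tnf, the cytokine named in the series title, at 50 RPM. The split is made by a measured gene and not by a label, and it separates wells that also differ in how many genes they hold. The 14 Tnf wells (2 uncrushed, 3 day 2 and 9 day 4) had a median of 8020 genes and the 74 others 3244, and at day 4 the medians were 8888 for 9 wells and 3411 for 15. None of the Tnf wells held 3 or more neutrophil or rod markers, against 13 of the others. Of 4040 genes that passed the filter 84.9% were higher in Tnf wells by 2-fold or more and 0.644% lower, and of 10 members 6 passed, 6 were higher and 0 lower. At day 4 alone 83% of 5344 genes were higher and 0.618% lower, and again 6 members passed, 6 were higher and 0 lower. Bcl2l1 passed only through the Tnf wells, so its direction was fixed by the filter. The count of members is thus near that of all genes.

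Every Tnf well held Bcl2a1. The sum lay between 300 and 954 RPM in the 14 Tnf wells with a median of 718, and between 0 and 3917 RPM in the 74 others with a median of 15.4, of which 33 passed 50 RPM. At day 4 it ran from 357 to 954 RPM in 9 of 9 Tnf wells (median 837) and was present in 8 of 15 others (0 to 3917, median 556). The Tnf wells form a narrow band, while the others hold both the lowest and the highest wells. In mean log2(RPM + 1) the Tnf wells were higher by 4.26 over all days and 3.16 at day 4, which exceeded 89.0% and 67.9% of genes. These ranks set a sum against single genes. The copies taken singly exceeded 80.6% to 84.0% over all days, and 63.7% (a), 49.1% (b) and 54.9% (d) at day 4. On the scale of mean RPM the day 4 sign of the sum turned, with a log2 ratio of -0.58. On plate 2 at day 4 the log2 difference was also negative, -1.42, and all 10 wells held the gene.

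Bax and Bcl2l1 were more frequent in Tnf wells, where most genes were higher. The difference in mean log2(RPM + 1) of Bax exceeded that of 77.5% of genes over all days and 85.0% at day 4. That of Bcl2l1 exceeded 81.3% and 68.7%, but Bcl2l1 passed only through the Tnf wells, so its direction was fixed by the filter. Bax was present in 11 of 14 Tnf wells (78.6%, 49.2 to 95.3) and 12 of 74 others (16.2%, 8.67 to 26.6), and at day 4 in 7 of 9 and 3 of 15. In Tnf wells it ran from 1.44 to 437 RPM with a median of 85.5, against 0 to 671 with a median of 2.89. Bcl2l1 was present in 7 of 14 (50%, 23.04 to 77.0) and 2 of 74 (2.70%, 0.329 to 9.42), and at day 4 in 4 of 9 and 1 of 15. For these genes the ranges overlap, but the middle of the Tnf wells lies above that of the others.

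Mcl1 was present in 8 of 14 Tnf wells and 21 of 74 others, and at day 4 in 5 of 9 and 5 of 15. Its highest well was among the others, at 5054 RPM against 1212 in Tnf wells, and 9 of the 21 were neutrophil-marked. Bcl2l11 was present in 0 of 14 and 3 of 74, and Bcl2 in 1 of 14 and 1 of 74.

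Counted by any read, Bbc3 fell almost wholly on one side of the split at day 4. A read of Bbc3 was found in 8 of 9 day 4 Tnf wells, at 0.410 to 53.9 RPM, and in 0 of 15 others. Its difference of 3.53 exceeded that of 76.1% of genes in that comparison, in which it did not pass the filter. Over all days it was found in 11 of 14 and 4 of 74. At 50 RPM the counts were 1 of 9 and 0 of 15 at day 4, and 2 of 14 and 3 of 74 over all days. The highest Bbc3 well, an uncrushed one at 131 RPM, was among those without Tnf. The day 4 wells without Tnf are poorer in genes, and 4 of the 15 held 5000 genes or more, of which 0 had a read of Bbc3. The part of gene number in the split of Bbc3 was not tested beyond the matched wells that follow.

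Among wells with 5000 genes or more, chosen after seeing the data, the split was narrower for Bcl2a1 and still present for Bcl2l1. For Bbc3 it was present by any read but not at 50 RPM. There were 12 Tnf wells with a median of 8441 genes and 11 others with 5939, so the match is partial. Bcl2a1 was present in 12 of 12 and 9 of 11, Mcl1 in 8 of 12 and 5 of 11, Bax in 11 of 12 and 5 of 11, and Bcl2l1 in 7 of 12 and 0 of 11. Bbc3 had a read in 11 of 12 and 2 of 11, but reached 50 RPM in 2 of 12 and 2 of 11. In these wells 52.4% of the genes that passed the filter were higher in Tnf wells by 2-fold or more. Bcl2l1 reached 50 RPM in the Tnf wells only, so its direction there was fixed by the filter.

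**Figure D4:**
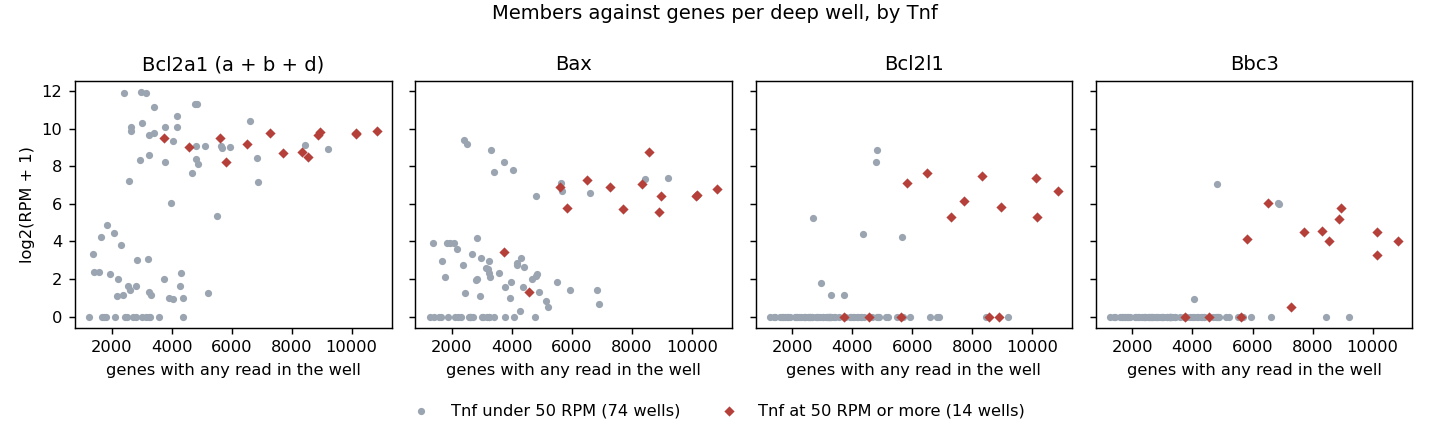
Level of 4 members as log2(RPM + 1) against the number of genes with any read, in 88 deep wells. Red diamonds are the 14 wells with Tnf at 50 RPM or more and grey points the 74 others. The diamonds lie toward wells with many genes, Bcl2a1 is high in all of them, and 13 of the 15 wells with a read of Bbc3 hold more than 5000 genes.

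Other genes of the pathway that passed the filter were mostly higher at day 4, as were most genes. For day 4 against uncrushed, 3 of 16 other family genes passed the filter and 2 were higher by 2-fold or more, the BH3-only genes Bad at 1.64 and Pmaip1 (Noxa) at 1.16. Bnip3l was at -0.83. Of 18 genes of mitochondrial death and caspases 8 passed and 6 were higher, with the porin Vdac3 at 3.71, cytochrome c (Cycs) at 2.98 and Casp8 at 2.61. Their median of 2.08 stands beside 1.37 over all genes. Of 12 genes of p53 and stress 5 passed and 5 were higher, with the cell cycle inhibitor Cdkn1a at 1.82, Ccng1 at 1.66 and Ddit3 at 1.62. Of 14 genes of TNF receptors and NF-kB 6 passed and 4 were higher, with the inhibitor Nfkbia at 2.00, Nfkb1 at 1.33 and Tnfrsf1a at 1.23. Among the genes that passed, Bad, Pmaip1, Vdac3, Casp8, Xiap, Trp53, Atf4, Cdkn1a, Ccng1, Ddit3 and Tnfrsf1a passed only through the day 4 wells. Their direction was thus fixed by the filter, and the median of 2.08 includes Vdac3, Casp8 and Xiap. They include all 5 of the p53 and stress genes and both of the higher family genes, so those counts add no support.

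In Tnf wells against the others, the same 4 lists had 1 of 2, 7 of 8, 5 of 5 and 6 of 7 genes higher by 2-fold or more among those that passed, beside 84.9% of all genes. Nfkbia, an NF-kB target that feeds back on it, was present in 12 of 14 Tnf wells and 21 of 74 others. Cdkn1a, like Bbc3 a known p53 target, was present in 8 of 14 and 6 of 74. Ccng1 was present in 6 of 14 and 5 of 74, and Ddit3 in 7 of 14 and 6 of 74. Cdkn1a, Ccng1 and Ddit3 passed the filter only through the Tnf wells, so their direction was fixed. The count of 5 of 5 for the p53 and stress list therefore adds no support. Pmaip1, another p53 target, was present in 4 of 14 and 3 of 74. Medians of these lists were 0.78, 2.81, 3.00 and 2.21, against 2.51 over all genes.

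The genes whose levels ran most like a member over the 88 deep wells, after the mean of each group was taken off, differed between members. For the Bcl2a1 sum, among 899 genes, these were Pld4 (Pearson r = 0.59), the microglial receptor Gpr34 (0.55), Slc25a4 (0.55), the chemokine Ccl12 (0.53) and Ldhb (0.53). For Mcl1 they were the nuclear RNAs Malat1 (0.75) and Neat1 (0.74) and the early response genes Btg2 (0.74), Ier2 (0.73) and Dusp1 (0.73). For Bbc3 they were Dusp6 (0.67), Jun (0.64), Il1a (0.64), Ppp1r15a (0.61) and Slco2b1 (0.59). The members' own correlation with the logarithm of genes per well was 0.50, 0.35 and 0.54, so the wells share gene number as well. These are descriptions over wells that share plates and preparation.

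Over all 144 wells at FPKM 1 or more, Bcl2a1 was found in 41 of 54 uncrushed wells, 28 of 36 at day 2 and 45 of 54 at day 4. Of these, 20, 11 and 26 rested on 3 reads or fewer. In the shallow wells alone it was found in 8 of 15, 8 of 11 and 25 of 30. Bax was found in 23, 18 and 22 of all wells and Mcl1 in 25, 23 and 24. The lower threshold also changed the shares within deep wells. At FPKM 1 Bcl2a1 was found in 33 uncrushed (84.6%), 20 day 2 (80%) and 20 day 4 deep wells (83.3%), so its upward run at 50 RPM is not seen at this threshold. Bax was found in 22 (56.4%), 18 (72%) and 17 (70.8%) of them.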

How the data were processed

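Single cells were sorted into wells, complementary DNA was amplified and Nextera XT libraries were made, per the labels' protocols. Trim Galore 0.4.4, Trimmomatic 0.36, cutadapt 1.16, STAR 2.7.2b and featureCounts 1.6.1 on GRCm38.p6 (mm10) are named in the submitters' processing notes, with no order or setting given. The values deposited by the authors are FPKM for 55364 genes in 144 wells, without molecular identifiers. Reads per well were recovered from the value of 1 read, the most frequent product of FPKM and length, and 40.9% of values under 100 reads were whole within 0.01, so no count test was run.

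Differences are of mean log2(RPM + 1) over deep wells (50000 reads or more). The members and lists were chosen with earlier results of these data known. The other genes named were the 3 largest differences in each list and the 5 genes most correlated with Bcl2a1, Mcl1 and Bbc3. In a simulation with 55364 genes, both groups were drawn from the uncrushed deep wells, in the well numbers of day 4 and uncrushed. There 8-fold changes were called in 85% of raised and 83% of lowered genes, and 14.5% of unchanged genes were called. Changes were planted only in genes at 50 RPM in at least 25% of the uncrushed deep wells. Of the members only the Bcl2a1 copies reached that share, so the rates do not describe the others. The simulation also leaves out the higher number of genes per well at day 4, so its rates may not hold for the real comparison. Alternatives covered pseudocount, length scaling, gene filter, thinning, plates, shallow wells, conflicting tags and neutrophil or rod wells. Doublets were not called. Tables were computed with pandas 2.3.3 and numpy 2.4.6 in Python 3.11.15, intervals with scipy 1.17.1 and figures with matplotlib 3.10.9.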

Additional observations from a re-analysis of the deposited data

How the results depend on the processing

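Of 54 recomputed counts of members past 2-fold, 47 stayed within 1.5 times the reported count, and among deep wells no member that passed the filter was lower by 2-fold in any setting run. Bcl2l11, which did not pass, was at -1.16 for day 4 against day 2 without plate 1 and -1.11 without the conflicting tags. With log2(RPM + 10) the count of members higher by 2-fold went from 6 to 3 for day 4 against uncrushed and from 4 to 1 for day 2 against uncrushed. Without plate 2 it was 3 for day 4 against uncrushed and 1 for day 4 against day 2, and without plate 1 it was 1 for day 2 against uncrushed. Over all wells it was 3 for day 4 against uncrushed and 1 for day 4 against day 2, where 1 member was lower. Among members called in the reported fit, signs turned without plate 2 for Bax at day 4 against uncrushed (-0.24) and for Bcl2a1a, Bcl2a1b and Bcl2a1d at day 4 against day 2 (-0.21, -0.18 and -0.25), and without neutrophil or rod wells for Mcl1 at day 2 against uncrushed (-0.30). Among those not called, day 4 against day 2 turned without plate 2 for Bax (-0.32) and Bbc3 (-0.20). Mcl1 there, near 0 as reported, ran from -2.11 over all wells to 1.42 without neutrophil or rod wells. Bcl2l11 for day 4 against uncrushed turned to -0.05 without neutrophil or rod wells, and the remaining turns, of Bcl2l11, Bcl2l1, Bcl2 and Bbc3, ended between -0.15 and -0.01. The cause of the changes by plate was not tested, and the day 4 wells of plate 1 are also those tagged day 2. The counts for Tnf wells lay at 5 to 7 in all settings. No paired analysis was possible because no label pairs wells and no result comes from a test. In the shallowest deep well 50 RPM is 3 reads, so absence there is not shown.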
